A study of Mus musculus with 89 samples.

Results

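A set of 8 histone genes that lie outside the replication-dependent histone clusters was examined, out of 26276 named genes in the count table. They were chosen by symbol: H2afx, H2afy, H2afj, H3f3a, H3f3b, H1f0, H1fx and Cenpa (8 of 8 found, and all 8 kept by the filter on low counts). The 2 genes of H2A.Z itself were not among them. The data were RNA-seq counts from V6.5 mouse embryonic stem cells, a male line, held in the naive state by LIF and inhibitors of MEK (PD0325901) and GSK3 (CHIR99021). All libraries came from cells of genotype H2afz-FKBP-V, in which H2A.Z.1 carries a tag that lets the dTAG molecule send the protein to the proteasome. One group of 3 libraries was labelled Control and the other group of 3 was labelled dTAG. The labels for the RNA samples give neither the length of treatment nor the agent given to the controls, and nothing says whether the libraries came from separate cultures, so the spread between them may be technical. The comparison asks how transcript levels differ after H2A.Z.1 is depleted, here for the genes of the other histone variants.

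Most histone protein is made in S phase from clustered genes whose mRNAs end in a stem-loop and lack a poly(A) tail. Variant histones are mostly made through the whole cell cycle from genes elsewhere in the genome, as polyadenylated mRNAs, and replace canonical histones at particular places. H2A.X is phosphorylated around DNA breaks, macroH2A carries a large globular domain and marks silent chromatin such as the inactive X, H3.3 is laid down at active genes by HIRA and at repeats by DAXX and ATRX, and CENP-A takes the place of H3 at centromeres. H1.0 and H1.10 are linker histones, which bind the DNA between nucleosomes, and H1.0 is known for its accumulation in differentiated, resting cells.

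In the RefSeq table of GRCm38.p6, the assembly behind the mm10 build named in the labels, all 8 genes are protein coding and lie on 7 chromosomes. H2afx (now H2ax) is at chr9:44334715-44336077, H2afy (now Macroh2a1) at chr13:56073622-56135626, H2afj (now H2aj) at chr6:136808248-136810074 and Cenpa at chr5:30666877-30674837. The H3.3 genes are H3f3a at chr1:180802560-180813605 and H3f3b at chr11:116021961-116026039. The linker genes are H1f0 at chr15:79028212-79030504 and H1fx (now H1f10) at chr6:87980421-87981482. H2afy overlaps 1 other annotated gene, Gm31485, which has no row in the counts under that name, and the other 7 overlap none. The H3.3 genes share their reading frame with copies elsewhere, such as H3f3c, so how reads were split between them is uncertain.

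H3f3a and H3f3b encode the same H3.3 protein from different promoters, and their upstream sequences are shown because the results below turn on whether the pair behaved alike; H2afj and Cenpa are shown beside them because they too held a CCAAT box. Each is the 250 bases before a RefSeq transcript start (GRCm38.p6), written 5′ to 3′ on the gene's strand, with matches to CCAAT and TATAAA, on either strand, in capitals. The start used is the outer end of the gene span given above for H3f3a and H2afj, but lies 1535 bases inside that span for H3f3b and 9 bases inside it for Cenpa. The windows are chr1:180813606-180813855 (minus strand) for H3f3a, chr11:116024505-116024754 (minus) for H3f3b, chr6:136807998-136808247 (plus) for H2afj and chr5:30666636-30666885 (plus) for Cenpa.
H3f3a: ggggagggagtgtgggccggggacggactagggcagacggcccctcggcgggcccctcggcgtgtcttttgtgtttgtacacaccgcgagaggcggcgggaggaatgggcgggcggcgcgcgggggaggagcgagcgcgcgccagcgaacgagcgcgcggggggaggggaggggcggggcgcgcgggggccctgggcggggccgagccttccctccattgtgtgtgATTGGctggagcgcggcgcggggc
H3f3b: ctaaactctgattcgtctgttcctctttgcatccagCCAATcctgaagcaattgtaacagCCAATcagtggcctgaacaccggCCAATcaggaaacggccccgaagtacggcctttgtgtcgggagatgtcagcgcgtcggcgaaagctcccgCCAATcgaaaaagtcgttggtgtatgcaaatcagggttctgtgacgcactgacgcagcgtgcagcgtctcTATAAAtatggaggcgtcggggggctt
H2afj: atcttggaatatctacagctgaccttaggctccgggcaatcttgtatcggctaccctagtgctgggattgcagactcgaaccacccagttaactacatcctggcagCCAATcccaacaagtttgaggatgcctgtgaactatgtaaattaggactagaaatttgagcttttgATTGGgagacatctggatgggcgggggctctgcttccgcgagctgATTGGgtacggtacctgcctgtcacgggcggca
Cenpa: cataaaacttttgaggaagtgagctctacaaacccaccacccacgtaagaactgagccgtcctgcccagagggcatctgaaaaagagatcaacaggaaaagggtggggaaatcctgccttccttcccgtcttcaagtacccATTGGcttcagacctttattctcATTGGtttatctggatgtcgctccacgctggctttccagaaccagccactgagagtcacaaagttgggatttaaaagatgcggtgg

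The H3.3 promoters differed in make-up. The H3f3b window held 4 CCAAT boxes, all on the gene's own strand, and 1 TATAAA, at 54.0% G + C. The H3f3a window held 1 CCAAT box, on the other strand (ATTGG), no TATAAA, and 77.2% G + C. H2afj held 3 CCAAT boxes and Cenpa held 2, and the windows of H2afy, H1f0 and H1fx, at 74.4% to 75.2% G + C, held none. Over 32851 RefSeq windows of the same length, 33.8% had at least 1 CCAAT box on either strand, 10.1% at least 2 and 0.840% at least 4, and 12.4% had a TATAAA. The letters TTTGAA (or TTCAAA), held by 16.0% of windows, were in none of the 7. These matches describe letters only.

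The libraries were of unequal depth and kind, which bears on every value below. The controls and dTAG replicate 1 held 12907095 to 15652795 counts in named genes, dTAG replicate 2 held 2131648 and dTAG replicate 3 held 1812405. Of 1462 receptor genes of smell and pheromone sensing, silent outside sensory neurons, 10.9% to 18.2% had a count in a control library. dTAG replicate 1 had a count in 23.5% of them, while replicates 2 and 3 had 71.5% and 97.0%. Mitochondrial ribosomal RNA made up 6.84% to 7.13% of a library in the controls and dTAG replicate 1, but 4.94% and 0.165% in dTAG replicates 2 and 3. The 8 embryonic stem cell markers were all present, at a summed 2334 to 2585 CPM (counts per 1000000 counts in named genes) in the controls and dTAG replicate 1, but 1537 and 470.1 CPM in dTAG replicates 2 and 3. Feeder fibroblast markers (7 genes) summed to 18.0 to 30.0 CPM per control library, against 19.8, 91.0 and 286 CPM in the 3 dTAG libraries; Col3a1 had 0 counts in every control and 44.1 CPM in the last of them. Primitive endoderm markers (4 genes) summed to 4.91 to 8.02 CPM per control, against 8.29, 70.4 and 216 CPM, and trophoblast markers (4 genes) to 24.2 to 26.9 CPM, against 24.9, 48.3 and 155 CPM. The part of these features in the differences below was not tested, and in bulk samples fewer cells of a type and less RNA per cell cannot be told apart.

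Over all 6 libraries, no variant gene was called changed. The quasi-likelihood test of edgeR, adjusted by Benjamini-Hochberg over 18116 genes, gave the 8 genes adjusted p between 0.397 (Cenpa) and 0.991 (H1f0). None had an unadjusted p under 0.05 either, a level that 23.2% of all tested genes reached. Genome-wide 0 genes (0%) passed an adjusted p under 0.05 in this test. On the same 18116 genes limma-voom called 0 and DESeq2 called 3206, none of them a variant gene. At that share, 0 of 8 does not set the variant genes apart. The 8 fold changes had a median of -0.52 on the log2 scale, against 0.16 for all tested genes, and all 8 lay below the latter. That median is not matched on level, here or for the lists below. Only 8876 of the 18116 tested genes had a control mean of 10 CPM or more, as all 8 did. Against the median CPM ratio of those 8876 genes, 4, 3 and 5 of the 8 lay below in dTAG replicates 1, 2 and 3. The standard errors ran from 0.31 to 1.27 (0.28 to 0.51 without dTAG replicate 3, 0.36 to 1.55 without dTAG replicate 1), and a p that misses the threshold does not show that levels were equal.

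**Figure D1:**
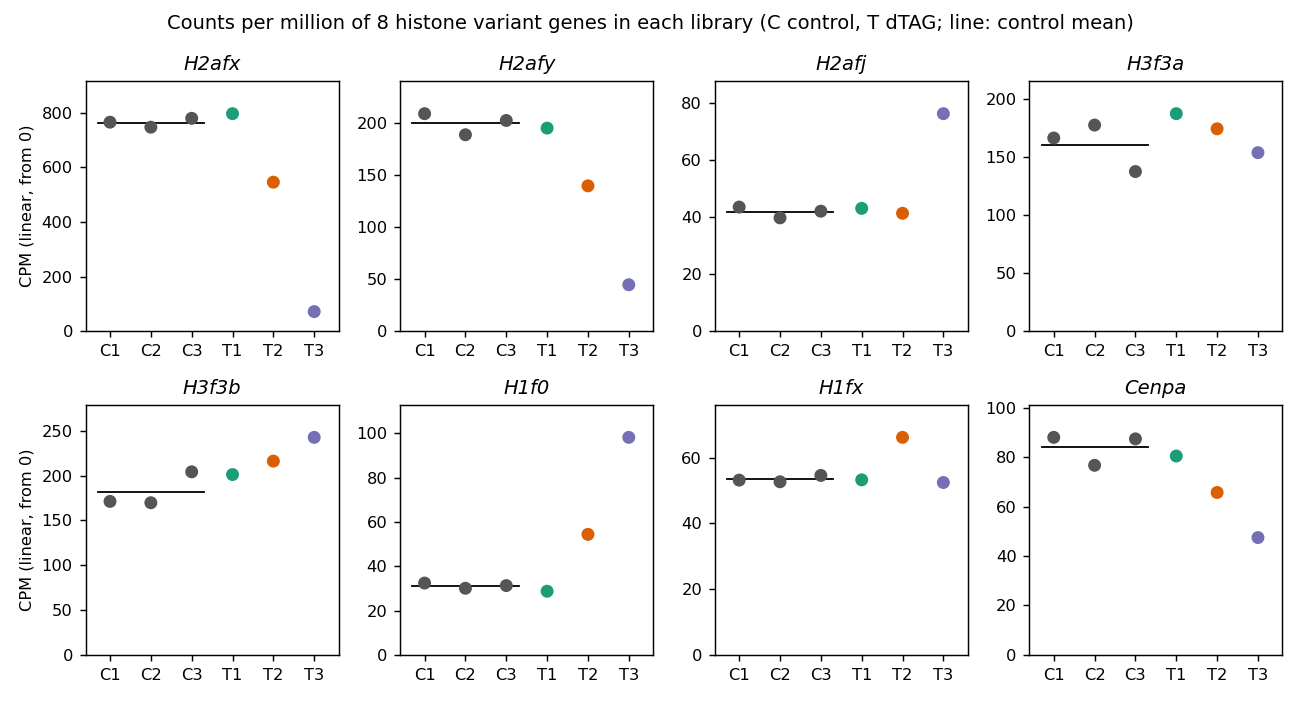
CPM (y axis, linear from 0, a scale per gene) of the 8 genes in control libraries C1 to C3 and dTAG libraries T1 to T3, with the control mean as a line. In T1 every gene is close to the controls, whereas in T3 H2afx and H2afy are far below them and H1f0 and H2afj are above (on the TMM scale H2afj is below).

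Among the H2A variants, H2afx and H2afy were low in dTAG replicates 2 and 3. H2afx, the source of the H2A.X that marks DNA breaks, was counted at 765, 746 and 779 CPM in control replicates 1, 2 and 3. In dTAG replicates 1, 2 and 3, always in that order below, it reached 796, 545 and 71.7 CPM. The first dTAG library was thus above every control and the other two below, the last of them 10.6-fold below the control mean of 763 ± 16.3 CPM (SD, n = 3). On the scale of the test (TMM, explained below) the last value was 31.6 against a control mean of 1019, or 32.2-fold below. The fitted log2 fold change of H2afx was -1.01 (SE 1.27, edgeR adjusted p = 0.568). H2afy, which encodes macroH2A1, gave control values of 209, 189 and 203 CPM and dTAG values of 195, 139.8 and 44.7 CPM. Here dTAG replicate 1 was inside the control range, and dTAG replicate 3 was 4.48-fold below the control mean in CPM and 13.6-fold on the TMM scale (log2 fold change -1.04, SE 0.88, edgeR adjusted p = 0.460).

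H2afj did not share this pattern. It encodes H2A.J, which differs from canonical H2A mainly at its tail end. Its control values were 43.5, 39.7 and 42.0 CPM, and dTAG replicates 1 and 2 were at 43.0 and 41.3 CPM, inside that range. In dTAG replicate 3 it was at 76.1 CPM, 1.83 times the control mean, and the exact Poisson 95% interval of that value (64.0 to 90.0 CPM, counting error only) lay above every control. On the TMM scale used by the test its fold change was nevertheless negative (log2 -0.43, SE 0.36, edgeR adjusted p = 0.460), and it was 0.43 with library totals alone. TMM corrects for composition, and its factor was 2.49 for dTAG replicate 3 and 1.23 for dTAG replicate 2 against 0.727 to 0.789 in the other 4 libraries. On that scale the H2afj values were 55.1, 54.6 and 57.3 in the controls and 55.6, 34.4 and 33.6 with dTAG. The direction for H2afj therefore depends on the scaling, and the same holds for H3f3a, H3f3b and H1fx.

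In dTAG replicates 2 and 3 the H3.3 genes stayed nearer to their control levels in CPM than H2afx and H2afy did; in dTAG replicate 1 they were farther from them. H3f3a was at 167, 178 and 138 CPM in the controls and at 188, 175 and 154 CPM with dTAG. Only dTAG replicate 1 lay outside the control range, above it, and control replicate 3 was the lowest of all 6 libraries. H3f3b was at 171, 169.8 and 204 CPM in the controls and at 201, 216 and 243 CPM with dTAG. Its dTAG replicates 2 and 3 lay above every control, while control replicate 3 was above dTAG replicate 1. The log2 fold changes were -0.50 (SE 0.65, edgeR adjusted p = 0.582) for H3f3a and -0.41 (SE 0.63, edgeR adjusted p = 0.630) for H3f3b, and 0.15 and 0.34 with library totals alone.

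Summed, the pair gave control values of 338, 348 and 342 CPM and dTAG values of 389, 391 and 397 CPM, so that the groups did not overlap, in CPM. The sum was formed after the values were seen and has no test; 23.9% of all tested genes had every dTAG library above every control. On the TMM scale the sum was 429, 478 and 466 in the controls and 503, 325 and 175 with dTAG, so the libraries are then not all on 1 side.

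The division of H3.3 counts within a library does not depend on scaling. Of the counts in H3f3a and H3f3b together, H3f3b supplied 50.7%, 48.9% and 59.7% in the control libraries and 51.8%, 55.3% and 61.2% with dTAG. The Wilson 95% interval of control replicate 3 (58.4% to 61.1%, counting error only) stood clear of those of the other controls (49.3% to 52.1% and 47.5% to 50.2%) and overlapped that of dTAG replicate 3 (57.6% to 64.7%). The group means were 53.1% ± 5.83 and 56.1% ± 4.76 (SD, n = 3 each), a difference of 3.00 percentage points that was smaller than the spread between replicates (exact two-sided permutation test, p = 0.50; 3 against 3 libraries cannot go below p = 0.10). In control replicate 3 the lower H3f3a and the higher H3f3b offset each other, and the sum was between those of the other controls. H3f3c, a further gene of the H3.3 family outside the 8, was also lowest among the controls there, at 42.6 CPM against 54.4 and 53.6 CPM, and had 54.4, 49.3 and 38.6 CPM with dTAG.

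**Figure D2:**
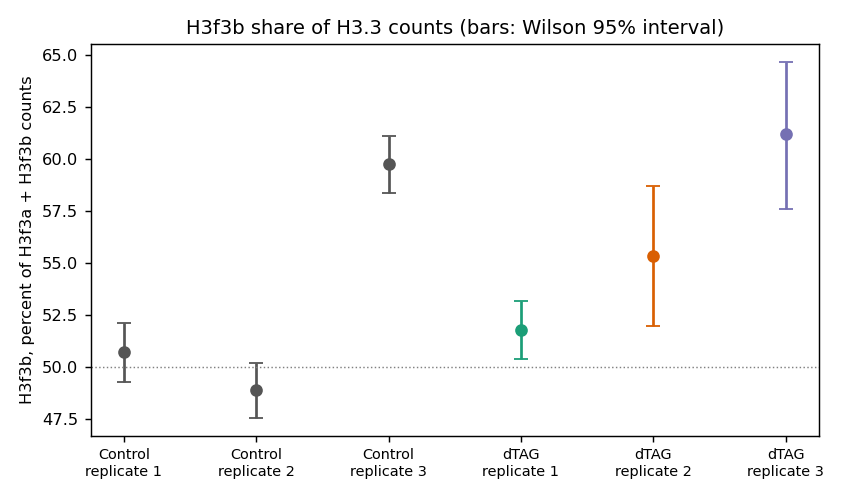
H3f3b counts as a percent of H3f3a plus H3f3b counts (y axis, not from 0) in each library, with Wilson 95% intervals as bars and a dotted line at 50%. Control replicate 3, at 59.7%, lies apart from the other controls and near dTAG replicate 3, at 61.2%.

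CENP-A mRNA, which normally peaks late in the cell cycle, took the same positions against the control range as that of H2afy, but over a smaller range. By the root mean square difference used further below, Cenpa was nearer to H3f3a (0.41) and H1fx (0.42) than to H2afy (0.55). Cenpa was at 88.0, 76.7 and 87.4 CPM in the controls and at 80.4, 65.7 and 47.5 CPM with dTAG. dTAG replicate 1 was inside the control range and the other two dTAG libraries were below it, dTAG replicate 3 by 1.77-fold from the control mean of 84.0 ± 6.36 CPM (SD, n = 3), and by 5.35-fold on the TMM scale. The log2 fold change was -0.90 (SE 0.61, edgeR adjusted p = 0.397), the smallest adjusted p among the 8 genes.

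Of the linker histone genes, H1f0 was the member most above the controls in CPM. Its control values were 32.4, 30.1 and 31.3 CPM and its dTAG values 28.7, 54.4 and 98.2 CPM. dTAG replicate 1 was below every control, and dTAG replicates 2 and 3 were 1.74 and 3.14 times the control mean, with Poisson 95% intervals of 45.0 to 65.3 and 84.3 to 113.7 CPM. On the TMM scale those libraries were 1.09 and 1.04 times the control mean. Its log2 fold change was 0.01 (SE 0.31, edgeR adjusted p = 0.991) on the TMM scale. H1fx, which encodes H1.10, was at 53.1, 52.6 and 54.6 CPM in the controls and at 53.2, 66.1 and 52.4 CPM with dTAG. In CPM only the Poisson 95% interval of dTAG replicate 2 (55.7 to 78.0 CPM) excluded every control value. It still overlapped the intervals of the controls, whose upper ends were 56.4 to 58.6 CPM. H1fx had the smallest control spread of the 8, an SD of 1.00 CPM (1.87% of its mean). On the TMM scale dTAG replicates 2 and 3 were instead below the controls, at 55.1 and 23.1 against 67.4 to 74.4. The log2 fold change of H1fx was -0.54 (SE 0.47, edgeR adjusted p = 0.468).

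H2afx, H1f0 and H1fx have no introns and 1 RefSeq transcript each, so their levels were set per length of the annotated gene span. Whether their transcripts fill that span was not examined, and shorter ones would change the values per length. Among controls H2afx stood at 559.97 ± 11.9, H1fx at 50.3 ± 0.942 and H1f0 at 13.6 ± 0.511 CPM per kilobase (SD, n = 3), an order in which each step was far larger than the spread between libraries. dTAG replicate 1 kept this order, at 584, 50.1 and 12.5 CPM per kilobase, with H2afx above and H1f0 below every control, and in dTAG replicate 2 they were 399.9, 62.3 and 23.7. In dTAG replicate 3 the values were 52.6, 49.4 and 42.8 CPM per kilobase, and their Poisson 95% intervals (44.0 to 62.5, 39.9 to 60.3 and 36.8 to 49.6) overlapped, so no order among the 3 genes could be told.

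The same narrowing was seen across all 8 genes. The highest CPM was 23.6 to 24.9 times the lowest among controls, and 27.7, 13.2 and 5.43 times with dTAG. The SD of log2 CPM across the 8 genes was 1.49 to 1.52 among controls and 1.56, 1.25 and 0.86 with dTAG, while over the 8876 tested genes whose control mean was 10 CPM or more that of log2(CPM + 1) went from between 1.44 and 1.45 in the controls to 1.46, 1.26 and 1.33. H2afx supplied 50.3% ± 0.299 (SD, n = 3) of the counts in the 8 genes among controls, against 50.2%, 41.8% and 9.11% with dTAG. H3f3b went the other way, from 12.0% ± 1.13 (SD, n = 3) to 12.7%, 16.6% and 30.8%, and H1f0 from 2.06% ± 0.0516 (SD, n = 3) to 1.81%, 4.18% and 12.5%. Cenpa held nearly 1 share throughout, at 5.54% ± 0.315 (SD, n = 3) in the controls and 5.07%, 5.04% and 6.03% with dTAG. These shares do not depend on how the libraries are scaled. They are parts of a fixed whole, so a lower share of H2afx raises the other shares even at unchanged levels. In dTAG replicate 3, H3f3b was 1.34 times its control mean in CPM and 0.44 times on the TMM scale. Cenpa was 1.77-fold below its control mean there in CPM and 5.35-fold on the TMM scale, at a nearly steady share.

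**Figure D3:**
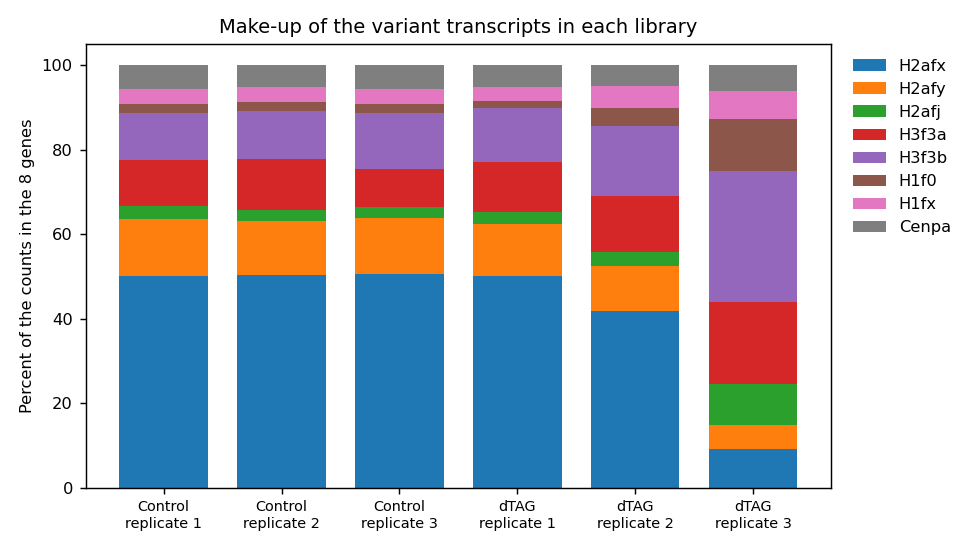
Share of each gene (stacked colours, percent on the y axis) in the counts of the 8 genes, by library. The controls and dTAG replicate 1 are alike, with H2afx at 50.0% to 50.6%, and in dTAG replicate 3 H2afx is at 9.11% and H3f3b, at 30.8%, takes the largest share.

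Counts of position give the same picture against all genes. No variant gene had all 3 dTAG libraries below all 3 controls, or all above, in CPM; 3.22% and 23.9% of the tested genes did. On the TMM scale H2afy and Cenpa were below in all 3 (10% of the tested genes were) and none was above (17.8%). Without dTAG replicate 1, H2afx, H2afy and Cenpa were below every control (17.8%) and H3f3b and H1f0 above (61.6%). Without control replicate 2, H2afy and Cenpa were below (5.86%), and without control replicate 3, H3f3b was above (29.3%). In dTAG replicate 1, H2afx and H3f3a lay above every control (34.2% of the tested genes did) and H1f0 lay below (16.9%). In dTAG replicate 2, H2afx, H2afy and Cenpa lay below (22.4%) and H3f3b, H1f0 and H1fx above (63.4%). In dTAG replicate 3, H2afx, H2afy, H1fx and Cenpa lay below (22.4%) and H2afj, H3f3b and H1f0 above (72.3%), H1fx by less than counting error. For 5 of the 8 genes, H2afx, H2afy, H3f3b, H1f0 and Cenpa, dTAG replicate 2 lay between the control mean and dTAG replicate 3, as it did for 83.9% of the tested genes.

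The 8 were then ranked among all tested genes above a floor of expression, with no matching on level. Among the 8876 tested genes whose control mean was 10 CPM or more, the log2 ratio of CPM + 1 to the control mean in dTAG replicate 3 had a median of 0.13 and an SD of 1.85. H2afx, at -3.39, was at the 5.98th percentile of these genes and H2afy, at -2.14, at the 14.0th, whereas H1f0, at 1.62, was at the 82.9th. The ratios of Cenpa (-0.81), H3f3a (-0.06), H1fx (-0.03), H3f3b (0.42) and H2afj (0.85) fell between. The range over the 8 genes was 0.34, 1.30 and 5.01 for dTAG replicates 1, 2 and 3. In dTAG replicate 1, 4 of the 8 genes lay below the control mean, from -0.12 for H1f0 to 0.22 for H3f3a, where the median of all these genes was 0.03 and their SD 0.25.

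**Figure D4:**
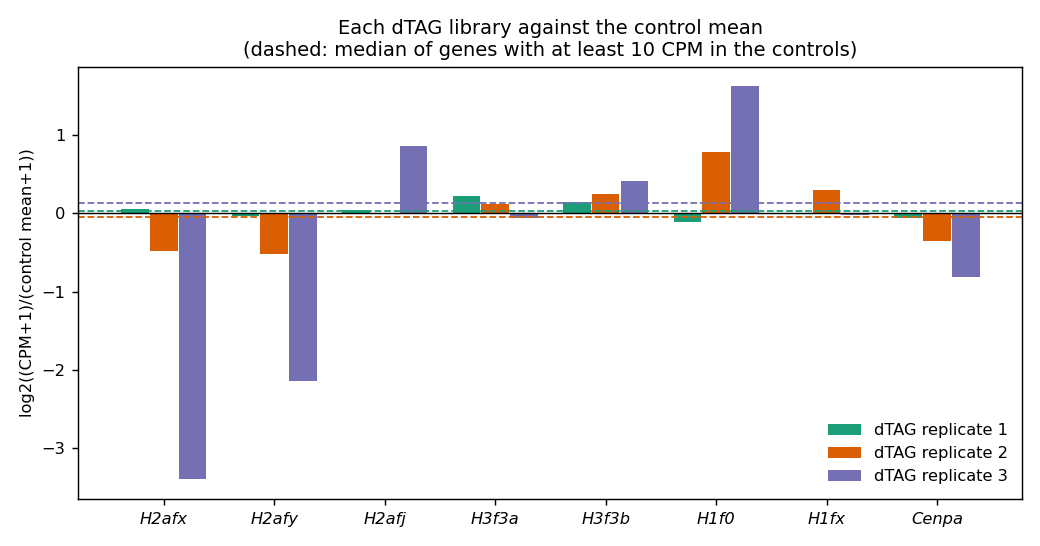
Log2 ratio of CPM + 1 in each dTAG library to the control mean (y axis) for the 8 genes, with dashed lines at the median of the 8876 tested genes whose control mean was 10 CPM or more. Bars of dTAG replicate 1 stay between -0.12 and 0.22, and those of dTAG replicate 3 run from -3.39 for H2afx to 1.62 for H1f0.

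With dTAG replicate 1 as the only dTAG library, set against the 3 controls, 0 of the 8 genes were called (edgeR adjusted p from 0.987 to 0.999) and 16 of 18143 tested genes (0.0882%) were. The fold changes of the 8 ran from -0.20 (SE 0.25) for H1f0 to 0.14 (SE 0.14) for H3f3a on the log2 scale, with a median of -0.06 against -0.02 for all tested genes. The dTAG arm is then 1 library, assumed to vary like the controls. Without dTAG replicate 1, in contrast, 13222 of 22093 tested genes (59.8%) were called, and among them 2 of the 8: Cenpa at -1.81 (SE 0.62, edgeR adjusted p = 0.0266) and H2afj at -0.98 (SE 0.39, edgeR adjusted p = 0.0462). In that fit 19.8% of the tested genes were called lower and 40% higher. The H2afj call is on the TMM scale, where those libraries were at 34.4 and 33.6 against 54.6 to 57.3 in the controls; in CPM they were at 41.3 and 76.1 against 39.7 to 43.5.

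The genes that deposit, read or partner these variants had no call either, in a fit where 0 of all 18116 tested genes (0%) passed. The counts of 0 given for each list below therefore do not set these genes apart. All 10 genes of H3.3 deposition were tested and 0 passed, with a median log2 fold change of -0.55 against 0.16 for all tested genes. The most abundant, the histone chaperone Nasp, averaged 656 ± 30.8 CPM over controls (SD, n = 3), against 694, 503 and 71.2 CPM with dTAG, and Atrx, the remodeller that works with DAXX, averaged 442 ± 33.7 CPM (SD, n = 3), against 479, 308 and 58.5 CPM. The list did not move as 1 group: in dTAG replicate 3, 6 of the 10 genes were above their control mean in CPM, and 2 of 10 on the TMM scale. Of the 8876 tested genes whose control mean was 10 CPM or more, 47.1% were below it in that library in CPM. The share on the TMM scale was not computed, so counts on that scale, here and for the next lists, have no background. Hira had a control mean of 57.2 CPM and 54.6, 72.7 and 81.1 CPM with dTAG, Daxx 40.9 against 41.0, 59.6 and 83.9 CPM, and Cabin1 31.9 to 42.2 CPM in the controls against 39.4, 82.6 and 149 CPM, these 3 being named after their values were seen. Of 9 genes of CENP-A deposition and anchoring 0 passed (median -0.71). Rbbp4, a chaperone subunit, averaged 272 ± 27.8 CPM (SD, n = 3), against 249.6, 179 and 36.4 CPM, and its paralogue Rbbp7 averaged 176 ± 19.1 CPM (SD, n = 3), against 189.97, 111 and 24.8 CPM. In dTAG replicate 3, 6 of the 9 genes were below their control mean in CPM and all 9 on the TMM scale. Hjurp, the chaperone of CENP-A, was named after its values were seen: at 51.0 to 59.9 CPM in the controls and 65.1, 70.4 and 60.1 CPM with dTAG, it had every dTAG library above every control in CPM, as 23.9% of all tested genes did.

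Of 13 genes of the signalling that runs through H2A.X at DNA breaks, 0 passed (median -0.71). Baz1b, a kinase of H2A.X, averaged 274 ± 17.7 CPM over controls (SD, n = 3), against 283, 222 and 94.9 CPM with dTAG, and Rad50, of the break-sensing MRN complex, averaged 149 ± 8.91 CPM (SD, n = 3), against 170.2, 137 and 63.5 CPM. Others lay higher: Mdc1, which binds phosphorylated H2A.X, had a control mean of 108 CPM and 105, 223 and 274 CPM with dTAG, and Trp53bp1, which binds chromatin at breaks, had 64.5 against 63.1, 76.0 and 105 CPM. In dTAG replicate 3, 7 of the 13 genes were above their control mean in CPM and 0 of 13 on the TMM scale, and the list summed to 1021 CPM against 1029 to 1204 CPM in the controls. Rnf168, a ubiquitin ligase that acts at breaks, had every dTAG library below every control in CPM (49.7 to 60.9 against 44.8, 36.6 and 30.3 CPM), as 3.22% of all tested genes did. Mdc1, Trp53bp1 and Rnf168 were named after their values were seen. The 8 partners of linker histones and macroH2A also had 0 calls (median -1.02): Ptma, an H1 chaperone, averaged 957 ± 61.1 CPM (SD, n = 3), against 995, 664 and 49.7 CPM, and Set averaged 595 ± 40.5 CPM (SD, n = 3), against 600.2, 425 and 133 CPM. Nap1l4, another chaperone in that list, named after its values were seen, was at 86.2, 74.1 and 27.6 CPM with dTAG against 100.2 to 119.6 CPM, wholly below the controls like 3.22% of all tested genes. In dTAG replicate 3 all 8 of these partners were below their control means on both scales, and the stem cell markers given above were low in the same library. In CPM, 47.1% of the 8876 tested genes at 10 CPM or more were below theirs, and the TMM share was not computed.

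Other histone genes allowed a comparison with the 8. The replication-dependent linker histone genes (6 tested, 0 called, median -0.90) included Hist1h1c, which averaged 316 ± 17.3 CPM over controls (SD, n = 3) and reached 343, 236 and 42.5 CPM with dTAG, and Hist1h1e, which averaged 269.8 ± 20.2 CPM (SD, n = 3) and reached 279.8, 205 and 34.2 CPM. Both were lower in dTAG replicate 3 than in any other library, where H1f0 was at its highest and H1fx was within counting error of the controls, in CPM. Of 8 further variant genes 4 were tested and 0 passed (median 0.23). Besides H3f3c these included H2afy2, which encodes macroH2A2. It had a control mean of 25.4 ± 5.84 CPM (SD, n = 3) against 23.7, 33.8 and 51.3 CPM with dTAG. In CPM it was opposite in direction to H2afy in dTAG replicates 2 and 3. On the TMM scale of the test its fitted log2 fold change was negative (-0.31, SE 0.32, edgeR adjusted p = 0.503), the same sign as for H2afy. The oocyte linker gene H1foo, named after its values were seen, was at 0 to 0.710 CPM in the controls and 1.39, 1.41 and 11.0 CPM with dTAG, wholly above the controls like 23.9% of all tested genes. These values rest on 0, 0 and 10 counts in the controls and 18, 3 and 20 with dTAG. In dTAG replicate 2 a count of 0 also allows up to 1.41 CPM, so the position of that library is at the floor. The germline variants H2afb1, H2afb2, H2afb3 and Hils1 had 0 counts in all 3 controls, where a count of 0 allows up to 0.213 CPM. With dTAG, H2afb1 had 15, 0 and 3 counts, H2afb2 had 1, 1 and 10, H2afb3 had 11, 0 and 5, and Hils1 had 0, 23 and 37. A count of 0 in these libraries allows up to 0.232, 1.41 and 1.66 CPM. Counts in genes silent in these cells were common there: 23.5%, 71.5% and 97.0% of the receptor genes given above had one. The counts of the germline variants are therefore not set apart from that background.

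By the root mean square difference of log2 ratios to the control mean over the 6 libraries, each of the 8 had close neighbours among 8285 other genes of at least 10 CPM. Nearest to H2afx were St13 (0.03) and Tceal9 (0.04), and to H2afy Adss (0.04) and Akap8 (0.04). Cenpa was nearest to Mia3 (0.04) and Rnd3 (0.05), H3f3a to Armc10 (0.05) and Dgkd (0.07), and H3f3b to Clk2 (0.04) and Csnk1g3 (0.06). For H2afj they were Fam117a (0.06) and Rnf169 (0.06), for H1f0 Piezo1 (0.06) and Tnrc6c (0.07), and for H1fx Lims1 (0.05) and Rab11fip1 (0.06). Within the 8, the closest pair was H3f3a and H1fx (0.17), ahead of H3f3a and H3f3b (0.28), and the farthest was H2afx and H1f0 (2.11). The log2 ratios of the 8 were widest in dTAG replicate 3, but the distance between H3f3a and H1fx did not come from that library, where their ratios were -0.06 and -0.03. In dTAG replicates 1 and 2 they were 0.22 and -0.01, and 0.12 and 0.30. The controls entered the distance as well, and there H3f3a ran from 138 to 178 CPM and H1fx from 52.6 to 54.6 CPM.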

How the data were processed

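RNA-seq was analysed in 6 of the 89 samples, 3 control and 3 dTAG libraries grouped by title; the remaining 83 were not analysed here. The file deposited by the authors holds raw counts for each gene, as whole numbers. Per the submitters' processing notes, STAR 2.7.2b, featureCounts, edgeR and limma were used with build mm10; what each did, the annotation and any use of strand were not given in the sources used here. Per the labels' protocols, RNA was column purified, ERCC spike-ins were added, and libraries were described as stranded and depleted of ribosomal RNA, with a kit named for mRNA. The table held 0 rows named as ERCC, so RNA per cell could not be measured.

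Rows without a symbol (903 of 27179; 2.20% to 14.6% of the counts) were left out. CPM divides by the named-gene total and multiplies by 1000000. The fit across all genes used edgeR 4.0.16 under R 4.3.3 (glmQLFit, then a two-sided glmQLFTest, TMM, filterByExpr at a minimum count of 10 and minimum total of 15, design of group alone) and Benjamini-Hochberg adjusted p, called when under 0.05. The fit was checked on simulated data with less spread between replicates than these libraries and no libraries of another kind. That check does not show which changes the fit could detect here. Each SE is the fold change divided by the root of F. No 2 libraries agreed within sampling noise (chi-square per gene at least 9.49). Alternatives were RLE scaling, library totals, no filter on low counts, DESeq2 1.42.0, limma-voom (limma 3.58.1), a replicate block, and leaving out libraries. Genes named beside the 8 were the 2 most abundant of each list with no call, and the 2 tested genes nearest to each of the 8 (at least 10 CPM in the controls; Gm, LOC and Rik names left out); exceptions are stated. The 8 genes, lists and alternatives were chosen with earlier results of these data known. Symbols were matched to RefSeq (GRCm38.p6), through older names for H2afx, H2afy, H2afj and H1fx. A match was found for 8 of 8 genes and for 7 of 8 promoters, all but that of H2afx.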

Additional observations from a re-analysis of the deposited data

How the results depend on the processing

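The count of genes called was 0 with all 6 libraries and edgeR, 0 with RLE, library totals or limma-voom, 1398 without a filter on low counts, 3206 with DESeq2, 13 with a replicate block and 16 with dTAG replicate 1 alone against the controls. Leaving out 1 library gave 0 to 13222 calls, the highest without dTAG replicate 1. Of the 8 variant genes, 0 were called under each of these settings except without dTAG replicate 1, which gave 2 (range 0 to 2). Most genes went uncalled in the former settings as well: 1398 of 25668 were called without a filter and 3206 of 18116 with DESeq2. Without dTAG replicate 1 it was 13222 of 22093. The cause of the differences between settings was not tested.

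Of 104 recomputed fold changes of the 8 genes, 88 kept their direction and side of the threshold, 14 reversed and 2 passed the threshold. With library totals, 4 genes turned from lower to higher: H2afj (0.43), H3f3a (0.15), H3f3b (0.34) and H1fx (0.15), on a scale where the median of all tested genes was 1.20. With dTAG replicate 1 alone H3f3a (0.14), H3f3b (0.062) and H1f0 (-0.20) reversed. H1f0, at 0.01 in the main fit, was also negative without a filter (-0.19) and without any 1 library (-0.19 to -0.032).

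The H3f3b share differed by 0.453 to 6.32 percentage points when 1 library was left out, the highest without control replicate 3 and the lowest without dTAG replicate 3, by 0.323 from summed counts, and by -1.34 with dTAG replicate 1 alone. Genes wholly below the controls numbered 0 in CPM, 2 on the TMM scale and 0 to 3 with 1 library left out (H2afy and Cenpa without control replicate 2; H2afx, H2afy and Cenpa without dTAG replicate 1). Those wholly above numbered 0, and 0 to 2 with 1 left out (H3f3b without control replicate 3; H3f3b and H1f0 without dTAG replicate 1).

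Same-numbered controls and dTAG libraries showed no shared deviation (correlations 0.03, -0.03 and 0.03 over genes). The dTAG libraries differed widely from each other in depth and kind, which could hide a pairing. Whether the replicate numbers mark pairs is therefore not known, and the block (13 calls, none of the 8) is given only as an alternative fit. Depth limits dTAG replicates 2 and 3, where the 8 genes had 88 to 1162 and 81 to 440 counts.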
